A study of Mus musculus with 8 samples.

Results

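The genes described here encode 3 groups of lysosomal proteins: the subunits of the vacuolar proton pump (V-ATPase), the cathepsin proteases and the lysosome-associated membrane proteins (LAMPs). They were taken by symbol from the deposited series-wide table of transcript abundance, which lists 23401 genes. Symbols beginning with Atp6v, symbols of Cts and a single letter, and symbols of Lamp and a number matched 45 genes. Of these, 32 reached 1 TPM (a transcript abundance per unit of length whose total is the same for each library) in at least 2 of the 8 libraries. They are 10 rows for the membrane sector of the pump (V0), 9 genes for its catalytic sector (V1), 11 cathepsins and 2 LAMPs. RNA sequencing had been done on mouse astrocytes, with no genotype, strain or age stated, in 4 groups of 2 libraries: a culture called MGS at day 32, conventional culture (CV) at day 32, MGS at day 5 and CV at day 5. The letters MGS are not spelled out, and the sample descriptions name MGS as soft and CV as hard. The design sets astrocytes in MGS beside conventionally cultured ones.

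Lysosomes are the acidic compartments in which cells break down what they take up and their own worn parts. The V-ATPase hydrolyses ATP on its V1 sector and drives protons through its V0 sector into the lumen, and the cathepsins are proteases that mostly work at the acidity this creates. LAMPs are heavily glycosylated proteins that line the inner face of the lysosomal membrane. In the brain, phagocytic microglia are known for a high content of several cathepsins, cathepsin S in particular, while the pump is needed by every cell type. Many lysosomal genes carry the E-box CACGTG near their start site, the core of the element bound by TFEB, a transcription factor of lysosome biogenesis.

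RefSeq promoter windows on GRCm38.p6, each 300 bases with 250 before the start site, were found for 23 of the 32 genes. CACGTG, which reads the same on both strands, was in a window of 9 of these 23 genes (39.1%), against 11.3% of 10789 tested genes with a window. Its longer form TCACGTGA, which contains it and is also its own reverse complement, was in 5 (21.7%), against 2.05%. The 9 genes were Lamp1, Ctsa, Ctsd, Ctsf, Ctsl, Atp6v0b, Atp6v0d1, Atp6v0e and Atp6v1a, and Ctsa, Ctsd, Atp6v0d1, Atp6v0e and Atp6v1a held the longer form. The windows below were chosen to show the most E-boxes (Lamp1), the most abundant member (Ctsd), an E-box at the start site (Atp6v0e) and the cathepsin with the widest range of levels as a ratio (Ctss). They lie at chr8:13158911-13159210 (plus strand), chr7:142387778-142388077 (minus strand), chr17:26676146-26676445 (plus strand) and chr3:95526536-95526835 (plus strand), and capitals mark CACGTG.
Lamp1: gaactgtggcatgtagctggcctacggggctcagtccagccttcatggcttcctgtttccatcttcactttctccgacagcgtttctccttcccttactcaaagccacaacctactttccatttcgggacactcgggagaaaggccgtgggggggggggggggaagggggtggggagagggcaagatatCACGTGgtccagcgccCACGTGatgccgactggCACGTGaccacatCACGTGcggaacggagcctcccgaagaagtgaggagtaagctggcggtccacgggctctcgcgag
Ctsd: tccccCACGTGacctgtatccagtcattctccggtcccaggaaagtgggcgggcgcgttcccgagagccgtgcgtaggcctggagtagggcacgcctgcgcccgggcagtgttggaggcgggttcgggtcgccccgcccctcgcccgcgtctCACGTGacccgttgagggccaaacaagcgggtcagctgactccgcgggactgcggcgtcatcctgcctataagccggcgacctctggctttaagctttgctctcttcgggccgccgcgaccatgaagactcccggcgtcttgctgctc
Atp6v0e: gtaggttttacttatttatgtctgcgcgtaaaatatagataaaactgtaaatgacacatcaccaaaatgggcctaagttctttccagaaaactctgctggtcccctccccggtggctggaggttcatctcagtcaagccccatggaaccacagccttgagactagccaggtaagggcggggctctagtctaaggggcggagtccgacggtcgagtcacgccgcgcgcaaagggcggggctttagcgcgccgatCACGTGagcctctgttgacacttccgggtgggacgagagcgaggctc
Ctss: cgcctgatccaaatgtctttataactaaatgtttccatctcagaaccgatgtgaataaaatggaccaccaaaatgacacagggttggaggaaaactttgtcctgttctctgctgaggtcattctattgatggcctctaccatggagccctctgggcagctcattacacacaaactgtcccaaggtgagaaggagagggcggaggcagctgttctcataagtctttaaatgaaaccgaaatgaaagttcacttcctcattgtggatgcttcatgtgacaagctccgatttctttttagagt
Relative to the start site, the E-boxes of Lamp1 began at bases -61, -45, -28 and -15. Those of Ctsd began at bases -245 and -98, and that of Atp6v0e at base 3. The Ctss window held no CACGTG in these letters. A match describes the sequence and not a bound site.

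The aligned sequence per library ranged between 2.15 and 4.69 gigabases and was lower in every CV library than in any MGS library. Replicates of CV at day 32 stood furthest apart, with an SD of their log2 difference across genes of 0.465, against 0.191 to 0.321 in the other 3 groups. The labels do not say that the 2 libraries of a group came from separate cultures, so p-values measure only how far these libraries differ, and that may be technical. Fold changes are differences of log2(TPM + 1), which understates changes of genes near 1 TPM, and calls were made with limma at a Benjamini-Hochberg adjusted p under 0.05 over 14904 genes. At day 32 all genes had a median log2 fold change, MGS against CV, of 0.56, and of 0.00 after scaling by the median of ratios, so each change at day 32 can also be read against that shift. Of all calls at day 32, 78.0% were for higher levels in MGS, and 50.1% after that scaling. Astrocyte markers were present in all 4 groups: the summed level of 10 genes was 13944 to 13969 TPM in MGS and 1473 to 1891 TPM in CV at day 32, and 17010.5 to 17214 TPM in MGS and 3499.7 to 3692 TPM in CV at day 5. Gfap made up most of that sum in MGS, with a mean of 9588 TPM in MGS and 754 TPM in CV at day 32. Of the 10 markers, 9 were higher and 1 was lower in MGS at day 32, and 6 were higher and 1 was lower at day 5. Aldh1l1 was the lower one at both days (-0.61 at day 32 and -0.69 at day 5), and Gjb6 was under 1 TPM in CV at day 32. The rows of Ctsa, Ctsb, Ctsz, Lamp1, Atp6v0a4 and Atp6v1b2 overlap protein-coding genes on the other strand, and whether strand was used in counting is not given in the sources used here, so their values are less certain. That of Atp6v0a4 also overlaps a protein-coding gene on its own strand, so some of its reads may be shared.

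The 32 genes did not move as one block. At day 32, 24 were called, where 67.6% of all tested genes were. Of these, 7 were higher in MGS than in CV and 17 were lower, against 52.8% of all tested genes called higher and 14.8% called lower. At day 5, 21 were called, where 48.9% of all tested genes were, with 9 higher and 12 lower, against 22.5% and 26.4% of all tested genes. After median-of-ratios scaling these counts were 4 and 21 at day 32, and 11 and 8 at day 5, and without the second MGS library of day 32 there were 4 higher at day 32. After median-of-ratios scaling, 5226 of all 14904 tested genes were higher and 5198 lower at day 32, and 4269 and 3572 at day 5. The median log2 fold change of the 32 genes was -0.34 at day 32, beside 0.56 over all genes, and -0.18 at day 5, beside -0.14. Atp6v0a4 and Atp6v0d2 entered the list only through MGS libraries, so a difference between cultures was built into their choice at 1 day at least. Atp6v0d2 entered through MGS at day 5 alone, so its difference between the days within MGS was built in too. Summed over the 32 genes, the level was 8173 and 8016 TPM in MGS, against 13582 and 14000.0 TPM in CV at day 32, and 8890.3 and 8974 TPM in MGS, against 9336 and 9446 TPM in CV at day 5.

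**Figure D1:**
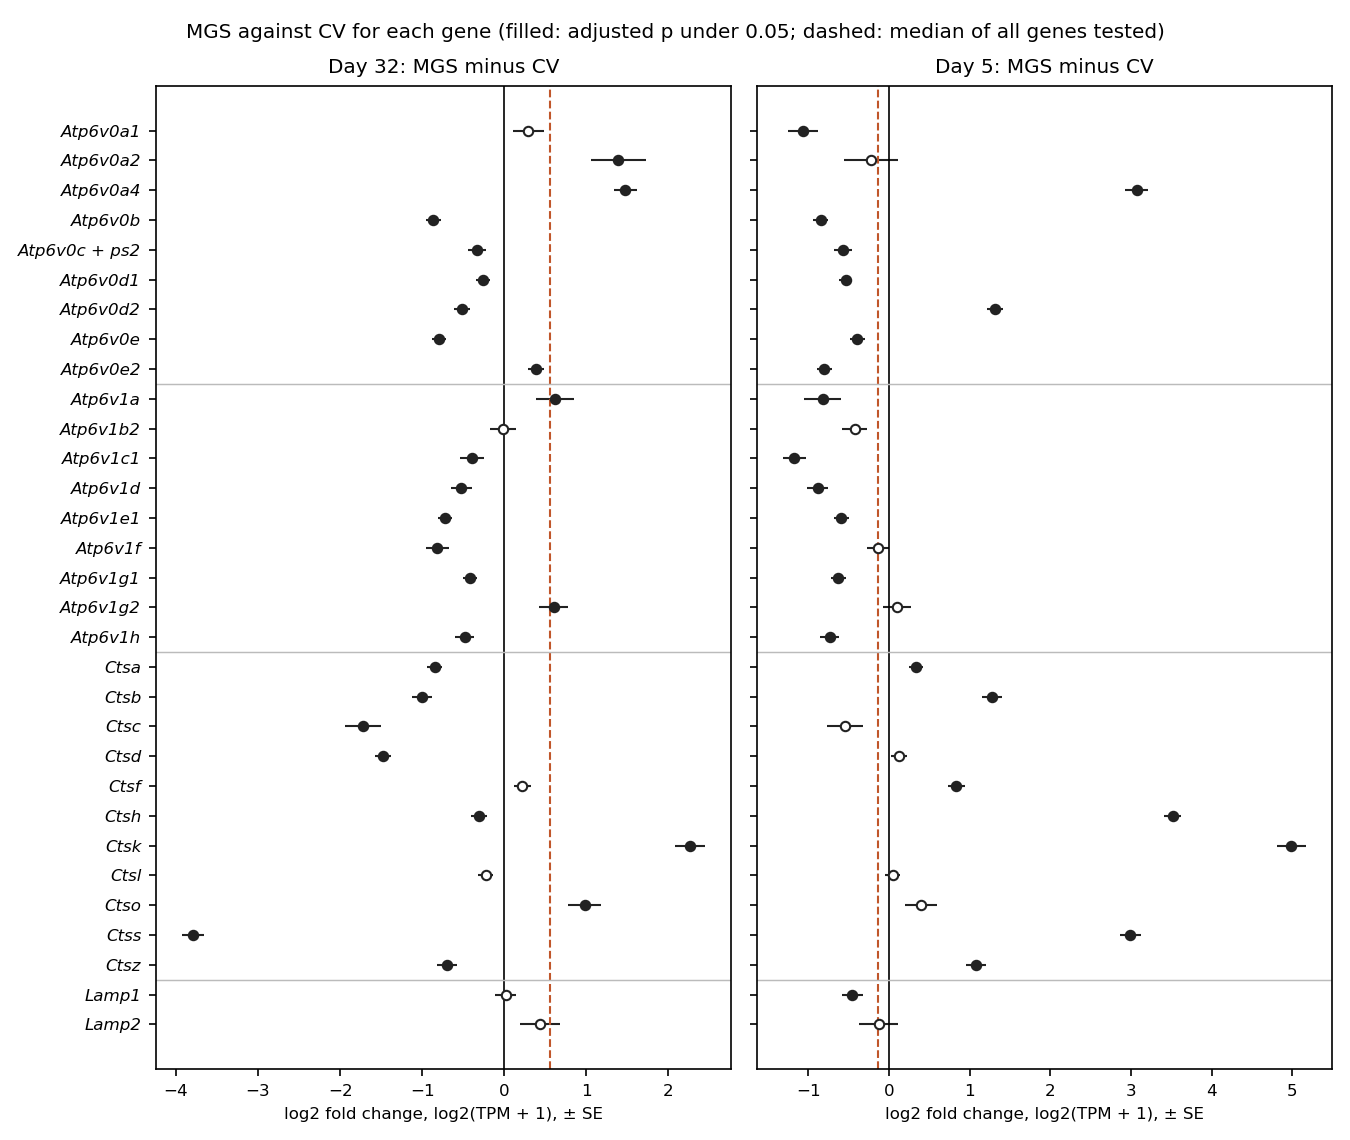
Log2 fold change of each gene, MGS against CV, at day 32 (left) and at day 5 (right), with bars of 1 standard error. Filled points passed the limma test at an adjusted p under 0.05, and Ctss stood at -3.79 at day 32 and at 2.99 at day 5.

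Of the 11 cathepsins, 2 were higher in MGS and 7 were lower at day 32 (2 and 8 after median-of-ratios scaling). Of all tested genes, 52.8% were higher and 14.8% lower at that day. At day 5, 7 cathepsins were higher and 0 were lower (8 and 1 after that scaling), where 22.5% and 26.4% of all tested genes were. Ctss, Ctsh, Ctsb, Ctsz and Ctsa were called in opposite directions at the 2 days. Their summed level was 3844 and 3779.9 TPM in MGS, against 8544 and 8593 TPM in CV at day 32, and 4856 and 4937 TPM in MGS, against 3649 and 3523 TPM in CV at day 5. With Ctsd left out, the sums were 2146 and 2132 TPM in MGS, against 3724 and 4092 TPM in CV at day 32, and 2543 and 2575 TPM in MGS, against 1413 and 1466 TPM in CV at day 5, and the order of the cultures was the same.

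Cathepsin S, a cysteine protease that trims the invariant chain in antigen-presenting cells, had the widest range of the 11 cathepsins as a ratio of its highest to its lowest group. Its gene lies at chr3:95526786-95556403 on the plus strand of mm10, and that of cathepsin K at chr3:95499286-95509362 on the same strand. Ctss was at 51.8 and 49.0 TPM in MGS, against 672 and 755 TPM in CV at day 32. The day 5 values were 48.8 and 49.96 TPM in MGS, against 4.72 and 6.01 TPM in CV. The 2 MGS groups lay close together, and the CV groups lay far below them at day 5 and far above them at day 32. The log2 fold change of MGS against CV was -3.79, SE 0.13, adjusted p 1.14e-06 at day 32 and 2.99, SE 0.13, adjusted p 3.64e-06 at day 5. Within CV, the mean at day 32 was 133 times that at day 5 (6.82, SE 0.13, adjusted p 2.38e-07).

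Cathepsin H, an aminopeptidase, was scarce in CV at day 5 and lay closer together in the other 3 groups. Ctsh was at 141 and 140.4 TPM in MGS, against 166 and 182 TPM in CV at day 32. The values at day 5 were 182 and 179 TPM in MGS, against 14.3 and 15.5 TPM in CV. MGS was slightly below CV at day 32 (-0.30, SE 0.10, adjusted p 0.0292) and far above it at day 5 (3.52, SE 0.10, adjusted p 7.24e-07). The call at day 32 was lost without either MGS library of day 5 or of day 32, at adjusted p between 0.0722 and 0.126, with the fold change within 0.01 of the value given.

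Cathepsins B, Z and A crossed over in the same sense. Ctsb, an abundant cysteine protease, was at 585 and 584 TPM in MGS, against 1040.0 and 1313 TPM in CV at day 32. At day 5, Ctsb stood at 763 and 788 TPM in MGS, against 310.4 and 331 TPM in CV. Its libraries did not overlap at either day, and the log2 fold change was -0.999, SE 0.12, adjusted p 0.000327 at day 32 and 1.27, SE 0.12, adjusted p 0.000141 at day 5. Ctsz, a carboxypeptidase, was at 413 and 433 TPM in MGS, against 758 and 624 TPM in CV at day 32. The day 5 libraries held 402 and 399 TPM in MGS, against 200.2 and 178 TPM in CV. MGS was the lower culture at day 32 (-0.70, SE 0.12, adjusted p 0.00164) and the higher at day 5 (1.08, SE 0.12, adjusted p 0.000275). Ctsa, a serine carboxypeptidase that also protects neuraminidase and beta-galactosidase, was at 158 and 161 TPM in MGS, against 277 and 298 TPM in CV at day 32. At day 5 it was at 229 and 224 TPM in MGS, against 179 and 179.7 TPM in CV. MGS was below CV at day 32 (-0.85, SE 0.09, adjusted p 0.000138) and slightly above it at day 5 (0.33, SE 0.09, adjusted p 0.0173). That small rise at day 5 was lost when any 1 library of day 5 was left out, at adjusted p between 0.0577 and 0.125.

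Cathepsins D and C were lower in MGS at day 32 and did not pass the test at day 5. Ctsd, the main aspartic protease of lysosomes, was the most abundant of all 32 genes in every group. It was at 1699 and 1648 TPM in MGS, against 4819.8 and 4501 TPM in CV at day 32. The values at day 5 were 2314 and 2362 TPM in MGS, against 2236 and 2057 TPM in CV. The MGS libraries were the lower ones at day 32 (-1.48, SE 0.10, adjusted p 1.44e-05), and at day 5 the difference was small (0.12, SE 0.10, adjusted p 0.318). The row overlaps another gene model on the same strand, so some of its reads may be shared. Ctsc, the dipeptidyl peptidase that activates granule serine proteases, was at 44.0 and 42.6 TPM in MGS, against 115 and 183 TPM in CV at day 32. At day 5, Ctsc stood at 33.2 and 34.3 TPM in MGS, against 44.1 and 56.1 TPM in CV. Its fold change was -1.72, SE 0.22, adjusted p 0.000406 at day 32 and -0.55, SE 0.22, adjusted p 0.0749 at day 5, with the CV libraries the higher ones at both days.

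Cathepsins K, O, F and L did not follow that pattern. Ctsk, the collagen-degrading protease best known from osteoclasts, was at 65.8 and 60.1 TPM in MGS, against 12.2 and 12.3 TPM in CV at day 32. The day 5 libraries held 145 and 132 TPM in MGS, against 2.69 and 4.23 TPM in CV. It was higher in MGS at both days (2.27, SE 0.18, adjusted p 3.71e-05 at day 32 and 4.99, SE 0.18, adjusted p 1.47e-06 at day 5), and the libraries of the 2 cultures were well apart. Ctso, a little-studied cysteine protease, was at 71.2 and 70.2 TPM in MGS, against 28.6 and 43.5 TPM in CV at day 32. At day 5 it was at 35.8 and 37.0 TPM in MGS, against 24.8 and 30.5 TPM in CV. It was higher in MGS at day 32 (0.98, SE 0.20, adjusted p 0.00381), and the difference at day 5 did not pass the test (0.39, SE 0.20, adjusted p 0.142). Ctsf, another cysteine protease, ranged between 59.8 and 120.7 TPM and was higher in MGS at day 5 (0.83, SE 0.10, adjusted p 0.000532). Ctsl, a widely expressed endopeptidase, varied less. It was at 497 and 471 TPM in MGS, against 547 and 584 TPM in CV at day 32, and at 592 and 619 TPM in MGS, against 567 and 605 TPM in CV at day 5. Neither difference passed the test (-0.22, SE 0.09, adjusted p 0.0627 at day 32 and 0.05, SE 0.09, adjusted p 0.692 at day 5), although at day 32 both MGS libraries lay under both CV libraries. After median-of-ratios scaling Ctsl was called lower in MGS at day 32, at -0.86 with an adjusted p of 0.0014.

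**Figure D2:**
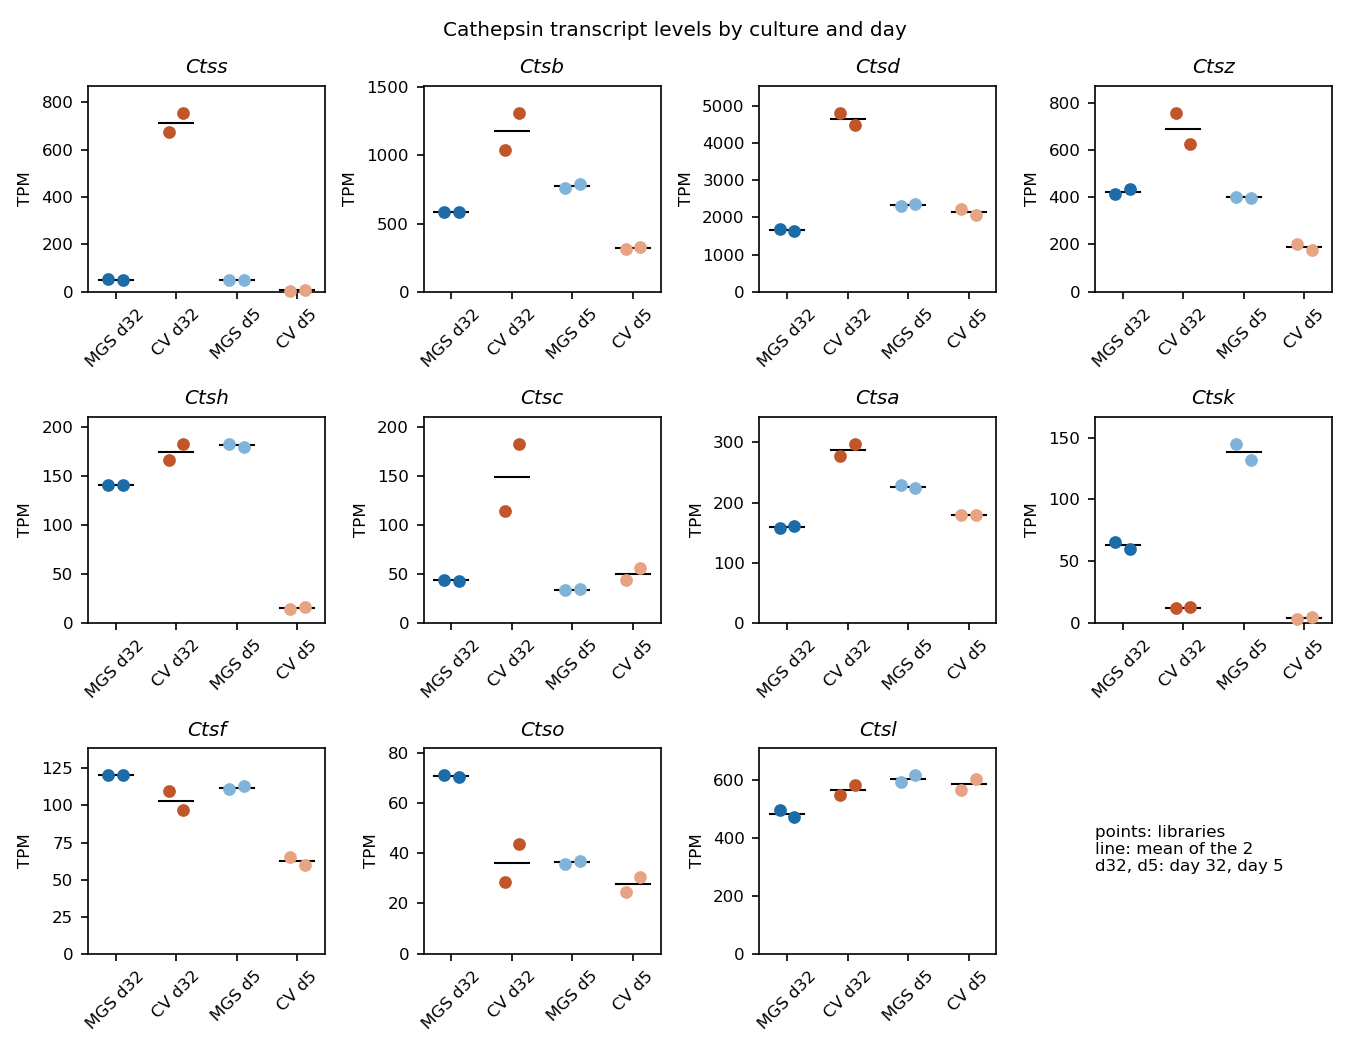
TPM of the 11 cathepsins in each library (points) with the mean of 2 (line), in MGS and CV at day 32 and at day 5. Ctss reached 672 and 755 TPM in CV at day 32 and was at most 51.8 TPM in the other 6 libraries, and Ctsk was highest in MGS at day 5.

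With time, the cathepsins rose in CV. Within CV, 9 of 11 were higher at day 32 than at day 5 and 0 were lower, where 53.7% of all tested genes were called, 16.0% higher and 37.7% lower. The rises were 6.82 for Ctss, 3.46 for Ctsh, 1.86 for Ctsb, 1.86 for Ctsz, 1.60 for Ctsk, 1.52 for Ctsc, 1.12 for Ctsd, 0.72 for Ctsf and 0.68 for Ctsa, as log2 fold changes. All 9 passed the test under all 20 alternatives run. Within MGS, 1 was higher at day 32 and 6 were lower, where 42.5% of all tested genes were called, 35.0% higher and 7.53% lower. Ctso was the one that rose (0.94), and Ctsk (-1.13), Ctsa (-0.51), Ctsd (-0.48), Ctsb (-0.41), Ctsh (-0.36) and Ctsl (-0.32) fell, of which only Ctsk passed under all alternatives. The calls for Ctso, Ctsb, Ctsd, Ctsh and Ctsl were lost without any 1 of the 4 MGS libraries, at adjusted p between 0.0591 and 0.172, and that for Ctsa without the first MGS library of day 5 (adjusted p 0.0549). The fold changes of MGS against CV differed between the days for 9 cathepsins, all toward lower values at day 32. Here 62.0% of all tested genes were called, 49.7% toward higher and 12.3% toward lower values.

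Markers of microglia and macrophages moved with these cathepsins between the cultures and over time in CV. Over time in MGS neither set moved as one. Summed over 16 genes, they were at 1537 to 1566 TPM in MGS and 18095 to 19146 TPM in CV at day 32. At day 5 they were at 1171 to 1193 TPM in MGS and 57.4 to 57.9 TPM in CV. Lyz2 held most of the sum in CV at day 32, with a mean of 10316 TPM. In CV at day 5, 7 of the 16 were under 1 TPM in both libraries (Cx3cr1, P2ry12, Tmem119, Aif1, Ptprc, Itgam and Mrc1), and in MGS at day 5 only P2ry12 was; 0 were at 0 in both libraries of any group. At day 32, 1 of the 16 was higher in MGS and 14 were lower, and at day 5, 15 were higher and 0 were lower. Within CV all 16 rose. Within MGS 10 of the 16 rose and 1 fell (median 0.96), while 1 of the 11 cathepsins rose and 6 fell (median -0.32). The 5 markers not called within MGS were Lyz2 (0.14), Tyrobp (-0.10), Trem2 (-0.55), Aif1 (0.35) and Ptprc (1.26), and Tmem119 fell (-1.39). The cathepsins not called there were Ctss (0.03), Ctsz (0.08), Ctsf (0.11) and Ctsc (0.35). Like the marker sum, Ctss, Ctsb and Ctsz were lowest in CV at day 5 and highest in CV at day 32, and Ctsh was lowest in CV at day 5. The part of these cells in the cathepsin levels was not tested, and in bulk RNA a change in the number of cells of a type and a change of RNA per cell cannot be told apart. For Ctsk, whose highest group was MGS at day 5, the summed level of 6 markers of meningeal fibroblasts was 11967 to 12002 TPM in MGS and 221 to 296 TPM in CV at day 32. At day 5 that sum was 9239 to 10999 TPM in MGS and 262 to 291 TPM in CV, and all 6 markers were higher in MGS at both days. Ptgds held most of the sum in MGS, with a mean of 10514 TPM at day 32 and 7392 TPM at day 5. Over time within MGS, 1 of the 6 rose and 3 fell. Lum and Slc6a13 were under 1 TPM in CV at day 5, and Slc6a13 was in CV at day 32. Sums of 6 oligodendrocyte markers were also higher in MGS, at 1306 to 1352 TPM against 7.59 to 9.36 TPM in CV at day 5. At day 32 they were 720 to 731 TPM in MGS and 15.2 to 18.8 TPM in CV, with Mog at 0 in both CV groups. Sums of 5 endothelial markers were 199 to 203 TPM in MGS and 5.48 to 5.52 TPM in CV at day 5. At day 32 they were 122 to 137 TPM in MGS and 7.64 to 16.1 TPM in CV. The part of these cell types in the Ctsk level was not tested.

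Transcripts of the V-ATPase were more abundant in CV than in MGS for most subunits. Summed over the 10 rows of V0, the level was 1528 and 1537 TPM in MGS, against 2047 and 2016 TPM in CV at day 32, and 1517 and 1530.5 TPM in MGS, against 2332 and 2281 TPM in CV at day 5. Over the 9 genes of V1 it was 1343 and 1291 TPM in MGS, against 1856 and 1833 TPM in CV at day 32, and 1251 and 1233 TPM in MGS, against 1767 and 1897 TPM in CV at day 5. In both sectors each MGS library lay under each CV library of the same day. Of 6 neuron markers, 2 were higher and 1 was lower in MGS at day 32, and 2 were higher and 2 were lower at day 5. Their summed level was 47.0 to 48.0 TPM in MGS and 166 to 168 TPM in CV at day 32, and 57.7 to 59.9 TPM in MGS and 131 to 146 TPM in CV at day 5. Stmn2 held most of it in CV, with a mean of 14.6 TPM in MGS and 144 TPM in CV at day 32. None of the 6 was at 0 in both libraries of a group, Rbfox3, Syt1 and Nefl were under 1 TPM in MGS and Rbfox3 and Snap25 in CV at day 32, and Rbfox3 was in CV at day 5. The part of neurons in the pump's levels was not tested. Of the 19 rows of the pump, 5 were higher in MGS and 10 were lower at day 32, where 52.8% and 14.8% of all tested genes were. At day 5, 2 were higher and 11 were lower, where 22.5% and 26.4% of all tested genes were. Leaving out the second MGS library of day 32 gave 2 higher and 6 lower at day 32, and leaving out the first gave 3 higher. After median-of-ratios scaling the counts were 2 and 12 at day 32, and 3 and 7 at day 5. Of all 14904 tested genes, 5226 were then higher and 5198 lower at day 32, and 4269 and 3572 at day 5. Without the 2 rows of Atp6v0c, which share their reads, and without Atp6v0a4 and Atp6v0d2, 15 genes were left: 4 were higher and 9 were lower at day 32, and 0 were higher and 11 were lower at day 5.

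In the catalytic sector, subunit A (Atp6v1a) binds and hydrolyses ATP together with subunit B (Atp6v1b2). Atp6v1a was at 127 and 126 TPM in MGS, against 63.9 and 106 TPM in CV at day 32. The values at day 5 were 66.6 and 70.4 TPM in MGS, against 107 and 138 TPM in CV. MGS was higher at day 32 (0.62, SE 0.23, adjusted p 0.0453) and lower at day 5 (-0.82, SE 0.23, adjusted p 0.0214). The result at day 32 was lost under 15 of 20 alternatives, among them leaving out any 1 library except the second CV library of day 32. It was -0.01 after median-of-ratios scaling and 0.26 (adjusted p 0.162) without the first CV library of day 32. The call at day 5 was lost without either MGS library of day 5 or without the second CV library, at adjusted p between 0.0844 and 0.135. Atp6v1b2 was at 145 and 141 TPM in MGS, against 123 and 169.7 TPM in CV at day 32, where the cultures overlapped. At day 5 it was at 143 and 138 TPM in MGS, against 176 and 203 TPM in CV, which did not pass the test (-0.43, SE 0.16, adjusted p 0.0593).

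Of the stalk, rotor and regulatory subunits of V1, Atp6v1c1, Atp6v1d, Atp6v1e1, Atp6v1g1 and Atp6v1h were called lower in MGS at both days, Atp6v1f at day 32, and Atp6v1g2 was called higher at day 32. Atp6v1c1, subunit C, which clamps the stator to the pump, was at 68.1 and 63.8 TPM in MGS, against 76.5 and 99.2 TPM in CV at day 32. At day 5, Atp6v1c1 stood at 49.0 and 51.8 TPM in MGS, against 108 and 123 TPM in CV. MGS was below CV at day 32 (-0.40, SE 0.15, adjusted p 0.0426) and at day 5 (-1.17, SE 0.15, adjusted p 0.000498). The call at day 32 passed under 10 of 20 alternatives, was lost without any 1 library except the first CV library of day 32, and was -0.21 (adjusted p 0.102) without the second. Atp6v1d, subunit D of the rotor, was at 129 and 121 TPM in MGS, against 173 and 187 TPM in CV at day 32. The day 5 libraries held 115 and 114 TPM in MGS, against 189 and 237 TPM in CV. It was lower in MGS at both days (-0.52, SE 0.13, adjusted p 0.00828 at day 32 and -0.88, SE 0.13, adjusted p 0.00102 at day 5), and at day 32 the adjusted p was 0.0614 without the second MGS library. Atp6v1e1 and Atp6v1g1, of the peripheral stalks, were lower in MGS at both days, with log2 fold changes of -0.72 and -0.42 at day 32 and of -0.59 and -0.63 at day 5; both calls at day 5 were lost after median-of-ratios scaling. Atp6v1h, a regulatory subunit, was at -0.48 at day 32 and -0.74 at day 5, and at day 32 its adjusted p was 0.0605 without the second MGS library. After correction for length and GC content its value at day 5 was -0.35 (adjusted p 0.0675). Atp6v1f, of the rotor, was lower at day 32 (-0.81, SE 0.14, adjusted p 0.00151) and not called at day 5 (-0.14, SE 0.14, adjusted p 0.43). Atp6v1g2, an isoform known from neurons, was low, between 6.46 and 12.1 TPM. It was higher in MGS at day 32 (0.60, SE 0.18, adjusted p 0.0177), lower after quantile normalization (-0.32), and not called without either MGS library of that day (adjusted p 0.0887 and 0.0957). Without the first CV library of day 32 it was 0.40.

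In the membrane sector, the proton-carrying ring is built of the proteins of Atp6v0c and Atp6v0b. Atp6v0b was at 277 and 273 TPM in MGS, against 533 and 471 TPM in CV at day 32. At day 5 it was at 278 and 281 TPM in MGS, against 508 and 497 TPM in CV. It was lower in MGS by almost the same amount at both days (-0.86, SE 0.09, adjusted p 0.000182 at day 32 and -0.84, SE 0.09, adjusted p 0.000292 at day 5). Atp6v0e, a small membrane subunit, was at 333 and 322 TPM in MGS, against 581 and 557 TPM in CV at day 32 and at 281 and 282 TPM in MGS, against 354 and 385 TPM in CV at day 5. Its fold change was -0.79, SE 0.09, adjusted p 0.000215 at day 32 and -0.39, SE 0.09, adjusted p 0.00928 at day 5, and the call at day 5 was lost under 8 of 20 alternatives. These were the leave-outs of either MGS library or of the second CV library of day 5 (adjusted p between 0.0574 and 0.075), and scaling, FPKM and length corrections. Atp6v0d1, which joins the ring to the central stalk, was at 196 and 193 TPM in MGS, against 229 and 236 TPM in CV at day 32 and at 216 and 209 TPM in MGS, against 304 and 315 TPM in CV at day 5. MGS was the lower culture at both days (-0.26, SE 0.09, adjusted p 0.0303 at day 32 and -0.54, SE 0.09, adjusted p 0.00171 at day 5), but at day 32 the call was lost without any 1 of the 4 MGS libraries, at adjusted p between 0.0746 and 0.146. Median-of-ratios scaling gave -0.34 with an adjusted p of 0.0711 at day 5.

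**Figure D3:**
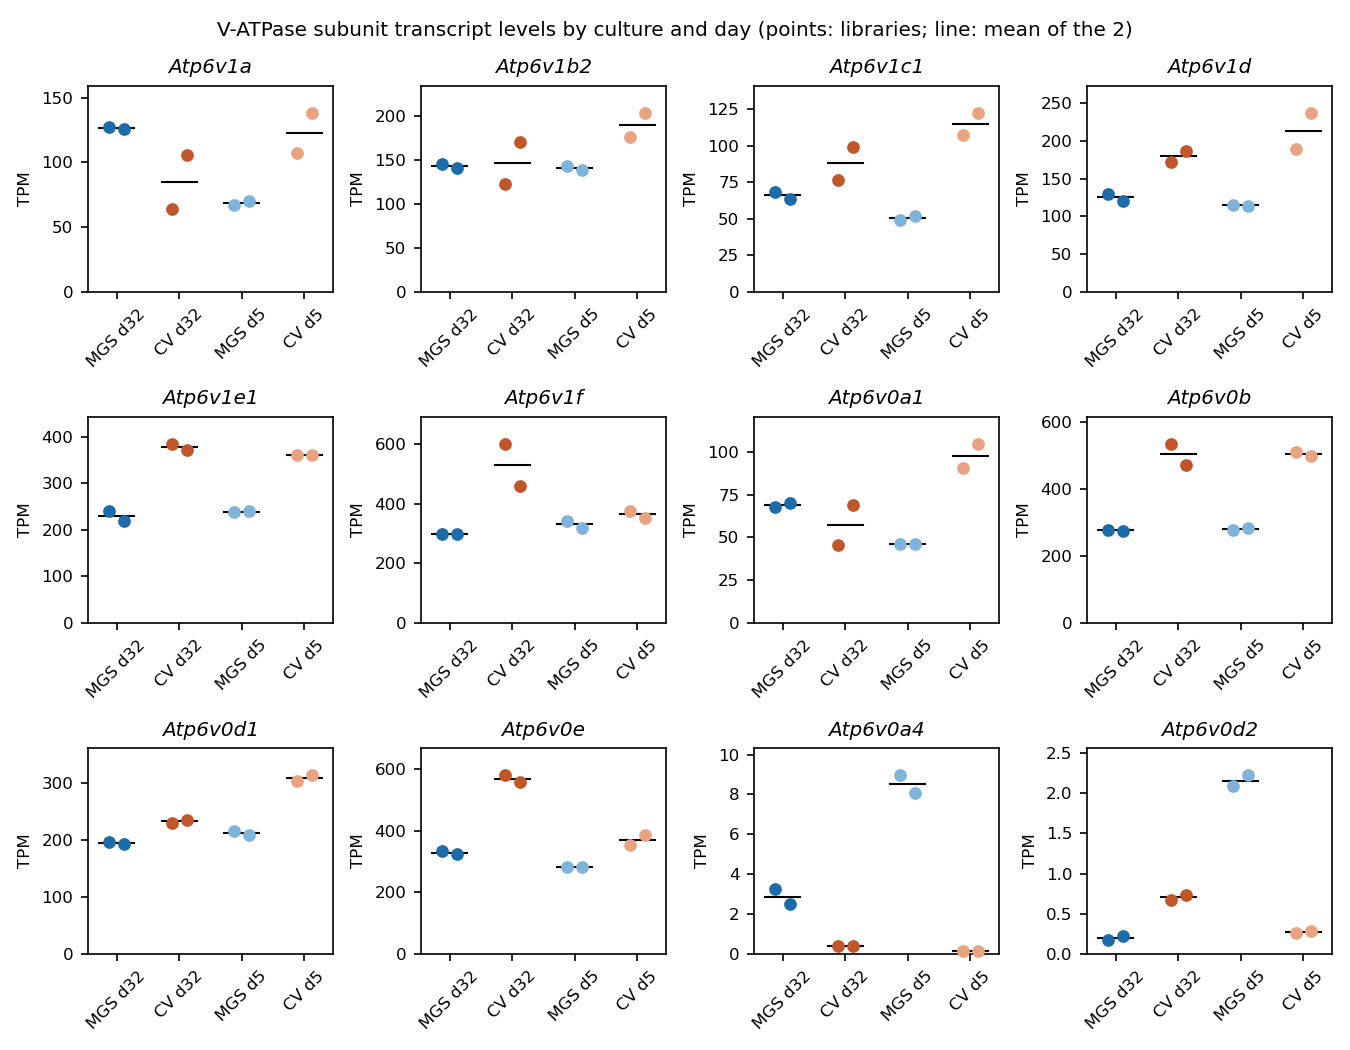
TPM of 12 V-ATPase genes in each library (points) with the mean of 2 (line), in MGS and CV at day 32 and at day 5. Atp6v0b and Atp6v1e1 were lower in both MGS groups than in both CV groups, and Atp6v0a4 and Atp6v0d2 stayed under 10 TPM.

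Atp6v0c, the gene of the main ring protein, could only be read after its row was added to that of Atp6v0c-ps2. The files place Atp6v0c at chr17:24163866-24169429 and Atp6v0c-ps2 at chr17:24163865-24169395, both on the minus strand in mm10, so the 2 rows cover the same stretch. The Atp6v0c row held 10.9 and 412 TPM in MGS, against 515 and 14.9 TPM in CV at day 32, and 459 and 18.8 TPM in MGS, against 763 and 637 TPM in CV at day 5. Of the summed level, the Atp6v0c-ps2 row held 97.2% in the first MGS library and 97.0% in the second CV library of day 32, and 96.1% in the second MGS library of day 5. In the other 5 libraries it held under 0.05%. Added together, the rows were at 395.0 and 411.6 TPM in MGS, against 515.2 and 498.2 TPM in CV, at day 32. At day 5 the sum was 458.7 and 479.7 TPM in MGS, against 763.3 and 636.7 TPM in CV. The summed rows were lower in MGS at both days, with log2 fold changes of -0.33 (SE 0.11, adjusted p 0.0299) at day 32 and -0.57 (SE 0.11, adjusted p 0.00412) at day 5. Taken alone, neither row passed the test in any contrast, with SEs of 2.22 and 3.92 in the comparisons of 2 groups. The sum was chosen after the values were seen.

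**Figure D4:**
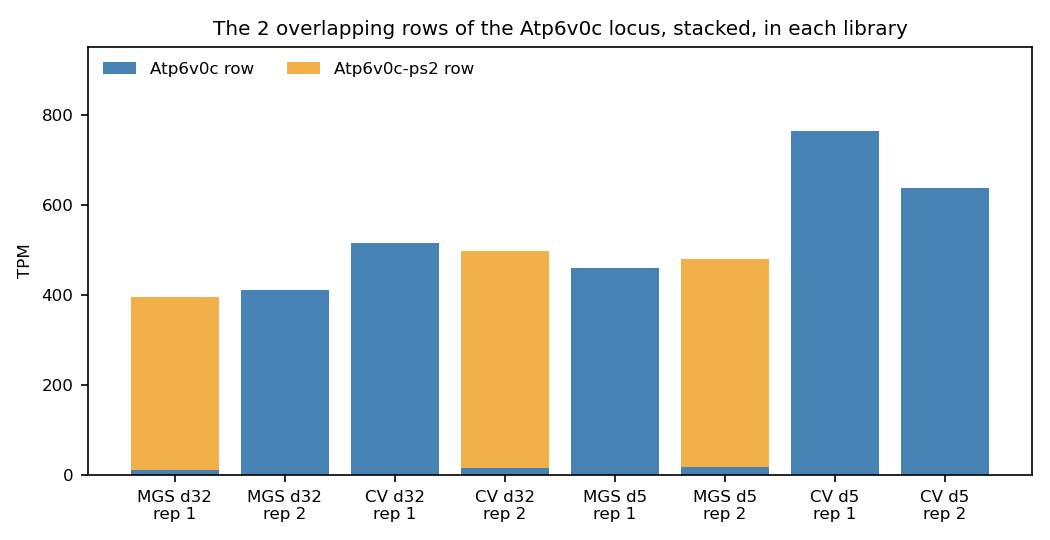
TPM assigned to the Atp6v0c row and to the Atp6v0c-ps2 row in each of the 8 libraries, stacked. Nearly all of the level of a library stands in 1 of the 2 rows, and the stacked height is lower in MGS than in CV at each day.

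The isoforms of the large V0 subunit a, which direct the pump to particular membranes, differed from each other. Atp6v0a1, the isoform best known from synaptic vesicles, was at 68.1 and 69.9 TPM in MGS, against 45.5 and 69.0 TPM in CV at day 32. The values at day 5 were 45.9 and 46.1 TPM in MGS, against 90.6 and 105 TPM in CV. The cultures overlapped at day 32 (0.29, SE 0.19, adjusted p 0.199), and MGS was lower at day 5 (-1.07, SE 0.19, adjusted p 0.00293). At day 32 it was called lower after median-of-ratios scaling (-0.33) and after correction for length and GC content (-0.49), and called higher (0.59, adjusted p 0.0018) without the second CV library of day 32. Atp6v0a2, an isoform of the Golgi and endosomes, was at 96.7 and 103 TPM in MGS, against 24.2 and 57.5 TPM in CV at day 32. At day 5, Atp6v0a2 stood at 119.6 and 110.2 TPM in MGS, against 125 and 144 TPM in CV. It was higher in MGS at day 32 (1.39, SE 0.34, adjusted p 0.00825), a call lost after correction for length and GC content (0.35, adjusted p 0.148). It was 0.78 without the first CV library of day 32 and 2.00 without the second. Its row spans 10.4% of the annotated gene, so it stands for a part of the locus. The rows of Atp6v1g2, Ctsl and Atp6v0e also span only a part, 42.5%, 61.4% and 63.8% of their annotated genes. Atp6v0a4, the isoform of kidney and inner ear, was at 3.23 and 2.49 TPM in MGS, against 0.367 and 0.401 TPM in CV at day 32. The day 5 libraries held 8.99 and 8.08 TPM in MGS, against 0.142 and 0.125 TPM in CV. The values of MGS were above those of CV at both days (1.47, SE 0.14, adjusted p 8.33e-05 at day 32 and 3.07, SE 0.14, adjusted p 3.85e-06 at day 5), as the choice of the gene required at 1 day at least. Choroid plexus markers, 6 genes, summed to 1989 to 2011 TPM in MGS and 105 to 121 TPM in CV at day 32. At day 5 they summed to 12605 to 17009 TPM in MGS and 159.5 to 163 TPM in CV, with 6 of 6 higher in MGS at day 32 and 5 higher and 1 lower at day 5. Ttr held most of the sum in MGS, with a mean of 1868 TPM at day 32 and 14647 TPM at day 5. Over time within MGS, 2 of the 6 markers fell, 0 rose and 4 were not called. Kl was at 0 in CV at day 5, and Kl and Clic6 were under 1 TPM in CV at day 32. The part of choroid plexus cells in the Atp6v0a4 level was not tested.

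The remaining V0 genes are alternative subunits. Atp6v0e2, a second small membrane subunit, was at 158 and 161 TPM in MGS, against 117 and 127 TPM in CV at day 32 and at 108 and 112 TPM in MGS, against 187 and 198 TPM in CV at day 5. It was higher in MGS at day 32 (0.39, SE 0.10, adjusted p 0.00838) and lower at day 5 (-0.80, SE 0.10, adjusted p 0.000393). At day 32 median-of-ratios scaling turned the sign (-0.24), FPKM gave 0.005, and leaving out the second MGS library gave an adjusted p of 0.061. Atp6v0d2, the alternative to Atp6v0d1 best known from osteoclasts, reached the level asked of members only in MGS at day 5. It was at 0.17 and 0.217 TPM in MGS, against 0.672 and 0.733 TPM in CV at day 32, and at 2.09 and 2.23 TPM in MGS, against 0.261 and 0.279 TPM in CV at day 5. At 2.09 TPM in its lower library of that group it was the member nearest to the limit. Just outside the limit lay Atp6v1e2, Atp6v1c2 and Ctse, which reached 1.60, 1.10 and 1.06 TPM in 1 library each. Ctsw, Lamp3 and Lamp5 reached 0.722, 0.891 and 0.225 TPM at most. Atp6v1b1, Atp6v1g3, Ctsg, Ctsj, Ctsm, Ctsq and Ctsr were listed at 0 in every library.

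Over time, 5 of the 19 rows of the pump were called within MGS, where 42.5% of all tested genes were. Within CV 7 were called, where 53.7% of all tested genes were. Of all tested genes, 35.0% were higher and 7.53% lower at day 32 within MGS, and 16.0% and 37.7% within CV. Within MGS, 3 rows of the pump were higher at day 32 than at day 5: Atp6v1a (0.87), Atp6v0a1 (0.57) and Atp6v0e2 (0.53). Atp6v0a4 fell (-1.31), and Atp6v0d2 (-1.40) was the other lower one, as its choice required. The rise of Atp6v0a1 was lost under 14 of 20 alternatives, among them leaving out any 1 MGS library or either CV library of day 5, and was 0.15 after median-of-ratios scaling and 0.06 after correction for length and GC content. That of Atp6v1a was lost without any 1 MGS library. That of Atp6v0e2 was lost without the first MGS library of day 5 or the second of day 32, and after median-of-ratios scaling (0.10, adjusted p 0.485). Within CV, 3 were higher and 4 were lower. Atp6v0e (0.62), Atp6v1f (0.53) and Atp6v0d2 (0.42) rose, although Atp6v0d2 stayed under 1 TPM in every CV library. Atp6v0a2 (-1.81), Atp6v0a1 (-0.79), Atp6v0e2 (-0.66) and Atp6v0d1 (-0.41) fell. The summed rows of Atp6v0c also fell within CV (-0.46, SE 0.11, adjusted p 0.0108), and within MGS they were at -0.22 (adjusted p 0.14). Without the second CV library of day 5, Atp6v0a1 (adjusted p 0.0761) and Atp6v1f (adjusted p 0.0833) lost their calls within CV. Atp6v1f was also lost after correction for length and GC content (-0.003). After median-of-ratios scaling Atp6v0d1 was at -0.01 (adjusted p 0.952) and Atp6v0e2 at -0.26 (adjusted p 0.0913) within CV, and in FPKM Atp6v0d1 was at -0.14 (adjusted p 0.283). Over all 32 genes, 4 rose and 8 fell within MGS, beside 35.0% and 7.53% of all tested genes. Within CV 12 rose and 4 fell, beside 16.0% and 37.7%. After median-of-ratios scaling these counts were 2 and 13 within MGS, and 16 and 2 within CV. Of all 14904 tested genes, 3402 then rose and 3383 fell within MGS, and 4069 and 4000 within CV. The rises within MGS depended on single libraries: the count was 0 without the first library of day 5 or the second of day 32, 1 without either other MGS library, and 9 without either CV library of day 32. The falls within MGS numbered 3 without the first library of day 5, and 4 without any of the other 3 MGS libraries. The falls within CV numbered 10 without the second CV library of day 32.

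Of the 2 LAMPs, 1 was called between the cultures, at day 5. Lamp1, the second most abundant of the 32 genes after Ctsd in 3 of the 4 groups, was at 1095 and 1068 TPM in MGS, against 936 and 1223 TPM in CV at day 32. At day 5 it was at 1004 and 995 TPM in MGS, against 1335 and 1403 TPM in CV. The cultures overlapped at day 32 (0.02, SE 0.13, adjusted p 0.919), where Lamp1 was called lower in MGS in FPKM values (-0.37), after median-of-ratios scaling (-0.62) and after correction for length and GC content (-0.30). At day 5 it was lower in MGS (-0.45, SE 0.13, adjusted p 0.0252), a call lost under 8 of 20 alternatives, among them leaving out any 1 library of day 5 or either MGS library of day 32, with adjusted p between 0.0567 and 0.124. Lamp2, whose LAMP2A isoform serves chaperone-mediated autophagy, was at 362 and 341 TPM in MGS, against 199 and 336 TPM in CV at day 32. The values at day 5 were 261 and 278 TPM in MGS, against 253 and 342 TPM in CV. Neither difference passed the test (0.44, SE 0.24, adjusted p 0.143 at day 32 and -0.13, SE 0.24, adjusted p 0.683 at day 5), and gene values do not separate its isoforms. Without the second CV library of day 32, whose fellow held the lowest value of both genes, 2 of 2 LAMPs were called higher in MGS at day 32.

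Of the 5 genes with TCACGTGA, Ctsa, Ctsd, Atp6v0d1 and Atp6v0e were lower in MGS at day 32, and Atp6v1a was called higher. Of all 32 members 17 were lower at that day, and of all tested genes 14.8% were. Of the genes with CACGTG alone, Atp6v0b was lower at day 32, and Lamp1, Ctsf and Ctsl were not called. The calls for Atp6v0d1 and Atp6v1a were lost under 6 and 15 of 20 alternatives. At day 5, Ctsa was higher, Ctsd was not called and the other 3 with TCACGTGA were lower. Of those with CACGTG alone, Ctsf was higher, Atp6v0b and Lamp1 were lower and Ctsl was not called. Of all tested genes 22.5% were higher and 26.4% lower at day 5. Ctss and Ctsc, which fell furthest below CV at day 32, had windows without CACGTG. Of the other genes without it, Ctsz, Atp6v1d, Atp6v1e1 and Atp6v1f were lower at day 32. Ctsk, Ctso, Atp6v0a4, Atp6v0e2 and Atp6v1g2 were higher, and Atp6v0a1, Atp6v0c and Lamp2 were not called. A part of the motif in these levels was not tested. Windows of Ctsb, Ctsh, Atp6v0a2, Atp6v0c-ps2, Atp6v0d2, Atp6v1b2, Atp6v1c1, Atp6v1g1 and Atp6v1h were not analysed here.

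Transcript length moved with the comparison of cultures at day 32. Genes were split into 8 equal groups by length. The median log2 fold change at day 32 was -0.15 in the shortest group, with a median length of 1008 bases, and 1.37 in the longest, with 7780 bases. At day 5 the same medians were 0.11 and -0.49. The difference between the first and the second CV library of day 32 also followed length, with medians of 0.15 and -0.63. Among the members, Ctss (1355 bases), Ctsd (2127 bases) and Ctsc (3220 bases) were far below the median of genes of their length at day 32, and Atp6v1a (4234 bases) and Atp6v0a1 (4162 bases) lay closer to it. After correction for length and GC content, 5 of the 32 genes were higher in MGS and 21 were lower at day 32, and 9 and 13 at day 5. The cause of this pattern was not tested.

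**Figure D5:**
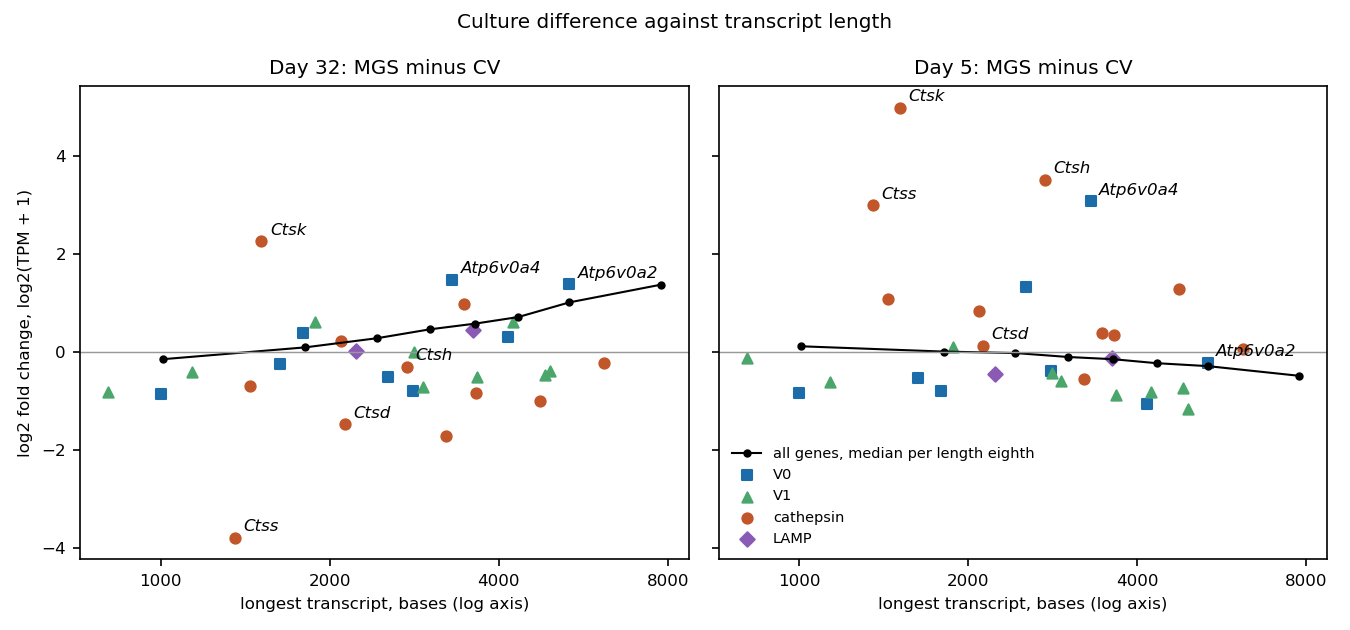
Log2 fold change, MGS against CV, of each member against its transcript length (log axis), at day 32 and at day 5, with the median of all tested genes in each eighth of length as a line. The line runs between -0.15 and 1.37 at day 32, and Ctss, Ctsd and Ctsc lie far below it.

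Other lysosomal genes, in lists chosen with earlier results of these data known, were divided as well. Each gene named from them passed the test, and values in parentheses are log2 fold changes of MGS against CV. They were not set against genes of the same length, whose median at day 32 ran between -0.15 and 1.37 over the length groups. Each count is to be read against all tested genes, of which 52.8% were higher and 14.8% lower at day 32, with a median of 0.56, and 22.5% higher and 26.4% lower at day 5, with a median of -0.14. Of 35 soluble hydrolases and activators, 9 were higher in MGS and 15 were lower at day 32, and 6 were higher and 11 were lower at day 5. Their median log2 fold change was -0.03 at day 32, beside 0.56 over all genes, and 0.06 at day 5, beside -0.14. Lipa, the acid lipase, averaged 46.7 TPM in MGS and 156.5 TPM in CV at day 32 (-1.67). Arsb, arylsulfatase B, went the other way with 191 TPM in MGS and 48.2 TPM in CV (2.03). At day 5, Acp5, the tartrate-resistant phosphatase of osteoclasts and macrophages, was higher in MGS (2.41), and Scpep1 (-1.64) and Asah1, acid ceramidase (-1.54), were lower.

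Of 20 other lysosomal membrane genes, 8 were higher in MGS and 6 were lower at day 32, and 5 were higher and 8 were lower at day 5. Laptm5 and Cd68, both known from myeloid cells, repeated the course of Ctss. Laptm5 averaged 43.0 TPM in MGS and 364 TPM in CV at day 32 (-3.04), and 25.2 TPM in MGS and 2.33 TPM in CV at day 5 (2.98). Cd68 was at -2.05 at day 32 and 1.89 at day 5. Scarb2, the receptor that carries glucocerebrosidase, was higher in MGS at day 32 (1.67), and Ostm1, a partner of the chloride exchanger Clcn7, was lower at day 5 (-1.32).

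Genes that act on the pump or the cathepsins from outside gave mixed counts. Of 10 accessory and assembly factors of the V-ATPase, 5 were higher in MGS and 2 were lower at day 32, where 52.8% of all tested genes were higher, and the list's median of 0.56 was that of all genes. At day 5, 1 was higher and 4 were lower. Dmxl2 (2.12), Dmxl1 (1.64) and Wdr7 (1.41), which help to assemble the pump, were higher in MGS at day 32, and the accessory subunits Atp6ap2 (-1.22) and Atp6ap1 (-0.90) were lower at day 5, with Dmxl1 (-1.09). Of the 4 cystatins and stefins tested, which inhibit cysteine cathepsins, 0 were higher and 4 were lower in MGS at day 32. Cstb averaged 227 TPM in MGS and 560.3 TPM in CV (-1.30), and Cst7 was listed at 0 in MGS and averaged 4.37 TPM in CV. At day 5, Cst3, the secreted cystatin C, averaged 5317 TPM in MGS and 3175 TPM in CV (0.75), and Cst6 was lower in MGS (-1.88).

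Of 9 genes that tag or sort enzymes for the lysosome, through mannose 6-phosphate or, as Sort1 does, without it, 6 were higher in MGS and 2 were lower at day 32, with Sort1 (1.74), Igf2r (1.39) and Gnptab (0.96) as the largest rises. At day 5, 1 was higher and 3 were lower: Gnptab (-0.84), Sort1 (-0.74) and the receptor M6pr (-0.60). Of 16 genes of the TFEB family and of mTORC1 on the lysosome, 6 were higher and 5 were lower at day 32, and 2 were higher and 7 were lower at day 5. Tfeb averaged 43.1 TPM in MGS and 17.8 TPM in CV at day 5 (1.23). The Rag GTPase genes Rragd (1.72) and Rragb (1.02) and the kinase gene Mtor (1.31) were higher in MGS at day 32, and Rragb (-1.17) and Rragc (-1.06) were lower at day 5. Of 17 core autophagy genes, 7 were higher and 1 was lower at day 32, where 52.8% of all tested genes were higher and the median was 0.20 in the list beside 0.56 over all genes. The higher ones were led by Ulk1 (1.11), Wipi1 (0.89) and Atg9a (0.85). At day 5, 5 were higher and 4 were lower, with Map1lc3a (0.69), Ulk1 (0.71) and Uvrag (-1.19) among them.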

How the data were processed

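The sample titles gave the groups and replicate numbers. Libraries were made from TRIzol-extracted total RNA with a directional kit, per the labels. The submitters' processing notes name bcl2fastq, HISAT2 2.1.0 and StringTie 1.3.4d, and the builds hg38 and mm10 with no roles; the use of strand was not given in the sources used here. The authors deposited TPM, FPKM and coverage per gene row, per the file headers. FPKM served in 1 alternative, and coverage gave the aligned sequence per library. TPM keeps no read counts, so errors come from the spread between replicates.

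Genes with at least 1 TPM in at least 2 libraries (14904) were tested. Rows of 1 gene ID were summed; the members' values equalled those of the series-wide table. limma 3.58.1 in R 4.3.3 fitted 4 group means to log2(TPM + 1) over all 8 libraries, with a variance trend, 4 residual degrees of freedom and Benjamini-Hochberg adjustment; calls are two-sided at 0.05. An exact permutation test of 2 against 2 cannot go below 0.333 and was not used. The fit was tested on simulated data. Length and GC content were those of the longest GENCODE transcript of a gene on GRCm38, for 99.2% of tested genes. The transcript present in these cells may be shorter. A spline of 5 degrees of freedom gave the corrected values. Promoters came from RefSeq.

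The members and lists were chosen with earlier results of these data known. Values in every library are given for 14 genes named in the plan where they passed (Ctsb, Ctsd, Ctsl, Ctss, Ctsk, Ctsz, Ctsc, Lamp1, Lamp2, Lamp5, Atp6v0d2, Atp6v0c, Atp6v1a and Atp6v1b2) and for up to 4 called members with the largest rise and fall in each contrast, and for Atp6v0e. Of the other lists, up to 3 called genes by size of change are named per culture comparison. One gene that this rule names is not reported here.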

Additional observations from a re-analysis of the deposited data

Results flagged for a closer look

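For 18 of the 32 genes the fold change of MGS against CV at day 32 differed from that at day 5 by the interaction term of the limma fit at an adjusted p under 0.05, where 62.0% of all tested genes did. Each value below is the log2 fold change at day 32 minus that at day 5.

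Among the cathepsins the difference was -6.79 for Ctss (adjusted p 2.57e-06), -3.82 for Ctsh (7.41e-06), -2.72 for Ctsk (0.000221), -2.27 for Ctsb (9.3e-05) and -1.78 for Ctsz (0.000229). It was -1.60 for Ctsd (0.000148), -1.18 for Ctsa (0.000348), -1.17 for Ctsc (0.0144) and -0.61 for Ctsf (0.01). Of these, Ctss, Ctsh, Ctsb, Ctsz and Ctsa were lower in MGS at day 32 and higher at day 5, while Ctsk was higher in MGS at both days.

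Among the V-ATPase genes the difference was 1.61 for Atp6v0a2 (0.0215), 1.44 for Atp6v1a (0.00763), 1.36 for Atp6v0a1 (0.00439), 1.19 for Atp6v0e2 (0.000454) and 0.77 for Atp6v1c1 (0.0144). It was -1.60 for Atp6v0a4 (0.000644), -0.68 for Atp6v1f (0.0186) and -0.40 for Atp6v0e (0.0275). Atp6v0d2 stood at -1.83 (8.81e-05), a description only, since it entered the list through its level in MGS at day 5, which is part of this value. Atp6v0a4 entered the list only through MGS libraries, so its value is a description only as well. Of these 9, 5 were positive and 4 negative. Leaving out 1 library at a time gave 1.005 to 2.22 for Atp6v0a2 and 0.59 to 0.96 for Atp6v1c1. It gave -0.87 to -0.48 for Atp6v1f and -0.46 to -0.34 for Atp6v0e. The calls of these genes were lost in some of those fits. The summed rows of Atp6v0c gave 0.24 (0.204).

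The calls for Ctss, Ctsh, Ctsk, Ctsb, Ctsz, Ctsd, Ctsa, Atp6v1a and Atp6v0a1 held under all 19 alternatives of the interaction. Of the 16 microglia markers, 14 were called toward lower and 0 toward higher values in the interaction. Within MGS 10 of the 16 rose and 1 fell over time, as given above, and their part in the cathepsin levels was not tested.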

How the results depend on the processing

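Of 2180 recomputed values of single genes, 1964 kept their direction and side of the threshold, 159 lost a call, 40 gained one and 17 changed sign. A change of sign where neither value was called counts as kept. Counts of calls are not part of this tally and follow here. Median-of-ratios scaling gave 4 higher at day 32; within MGS 2 higher and 13 lower; within CV 2 lower; and in the interaction 2 higher and 20 lower. FPKM gave 4 higher at day 32. Correction for length and GC content, with or without the replicate block, gave 15 lower within MGS and 9 lower within CV. A fit to only the 4 libraries compared gave 4 higher at day 32, 14 higher within MGS and 2 lower within CV. Leaving out 1 library at a time gave 4 to 10 higher and 12 to 18 lower at day 32, 8 to 10 and 9 to 14 at day 5, 0 to 9 and 3 to 8 within MGS, 11 to 13 and 3 to 10 within CV, and 3 to 12 and 10 to 14 in the interaction. In these fits the lone library of a group is assumed to vary like the other groups, and the cause of the changes was not tested.

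The replicate block gave 7 lower within CV, 9 and 14 at day 5, and otherwise the counts of the fit without it. Same-numbered libraries correlated between -0.131 and 0.444 in their deviations, with the highest value between CV at day 5 and CV at day 32. With only 2 libraries per group, these values cannot decide whether the numbers pair the samples.

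At day 32, these changed sign: Atp6v0a1 to -0.33 (median of ratios) and -0.49 (length and GC content, with and without the block), Atp6v0e2 to -0.24 (median of ratios), Atp6v1a to -0.012 (median of ratios) and -0.11 (length and GC content, both fits), Atp6v1g2 to -0.32 (quantile) and Lamp1 to -0.62 (median of ratios), -0.37 (FPKM) and -0.30 (length and GC content, both fits). Atp6v1c1 in the interaction changed to -0.046 (median of ratios) and -0.42 (length and GC content, both fits), and Atp6v1f within CV to -0.003 (length and GC content, both fits). Without read counts, no limit set by counting can be given for the genes near 1 TPM.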
